A study of Mus musculus with 2 samples.

Results

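Transcript levels of 10 genes of MHC class I antigen presentation were examined in SV40 MES13, a mouse kidney line that the labels call mesangial. The genes were taken by symbol as parts of 1 pathway. They are the heavy chains H2-K1, H2-D1, H2-Q4 and H2-T23, the light chain B2m, the peptide transporter subunits Tap1 and Tap2, the loading factor Tapbp, the trimming enzyme Erap1 and the activator Nlrc5. All 10 were found once each among 54713 rows of the deposited gene table. RNA sequencing was done on 1 library of cells infected with a lentivirus for the long noncoding RNA AI662270, here the AI662270 library, and on 1 library of cells infected with a control lentivirus, here the control library. Cells of both groups were selected with 0.5 mg/ml puromycin and kept in 0.25 mg/ml puromycin with 10% serum, and both are labelled untreated. The genotype label is overexpression of the RNA in the infected line and WT in the control. The labels do not say which promoter drove the RNA or whether a subline was a clone or a pool, and 1 sentence of the protocol names the cell line where the insert would stand. With 1 library per group no difference below has a replicate check, no test between groups was possible, and each comparison is between 2 libraries and not between 2 conditions.

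MHC class I molecules display peptides from inside the cell to CD8 T cells and to natural killer cells. A heavy chain folds with the light chain B2m in the endoplasmic reticulum and takes up a peptide there. The peptide is cut by the proteasome in the cytosol, carried across the membrane by the transporter TAP, trimmed by Erap1 and loaded with the help of tapasin, the product of Tapbp, calreticulin and the oxidoreductase Pdia3. Interferons are known to raise many genes of this route together, and Nlrc5 is known to act as an activator at class I gene promoters.

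The AI662270 library held 15062482 counts over 21262 genes with a count, and the control library held 15727023 counts over 20259 genes. AI662270 itself had 241 counts in the AI662270 library and 0 counts in the control library, where a count of 0 allows up to 3 counts. Levels are CPM, counts scaled to a common library size, and ratios are the AI662270 library over the control library. Ranges in brackets are exact 95% intervals of the counts, and they hold no error other than that of counting. Genes with a mean of 1 CPM or more over both libraries are called measured. A gene was called higher or lower at a log2 ratio of at least 1 in size, with 0.5 CPM added to both levels, and an interval of the ratio without 1. In bulk RNA, fewer cells with a transcript and less of it per cell cannot be told apart. Of 10 mesangial markers 5 were measured, with a summed level of 60.9 CPM in the AI662270 library and 53.5 CPM in the control library, and Itga8, Thy1 and Ren1 were at 0 in both. Within that list 1 was called higher and 1 lower: Acta2 had 171 counts in the AI662270 library and 12 in the control library, and Gata3 had 25 and 76. The call of Gata3 was lost with 2 CPM added in place of 0.5 CPM, and at a mean of at least 5 CPM. With 0.1 CPM added, Gata3 stayed called lower and Des was called higher beside Acta2. All 5 epithelial markers had a log2 ratio below 0 and 3 of them, Cdh1, Krt18 and Cldn4, were called lower, with a summed level of 632 CPM in the AI662270 library and 1348 CPM in the control library. The leukocyte markers summed to 15.1 CPM in the AI662270 library and 34.5 CPM in the control library, with Csf1r called lower and Adgre1, Itgam and Cd3e at 0 in both. The 5 endothelial markers summed to 1.41 CPM in the AI662270 library and 0.592 CPM in the control library, with Tek and Emcn at 0 in both. The part of these marker differences in the results below was not tested.

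The promoters of the 4 heavy chain genes and of B2m are shown because these 5 genes encode the displayed molecule itself, with ratios between the libraries above 1 for 4 of them and below 1 for H2-T23. Each is the RefSeq sequence of build GRCm38.p6 from 250 bases before to 50 bases after the annotated start, 5′ to 3′ on the strand of the gene. Capitals mark matches, on either strand, to 4 motifs: the CCAAT box (CCAAT), the letters TGACG, the interferon response core (GAAA, then any 2 letters, then GAAA), and the NF-kB motif. They were read at chr17:34000284-34000583 (minus strand) for H2-K1, chr17:35262844-35263143 (plus strand) for H2-D1, chr17:35379367-35379666 (plus strand) for H2-Q4, chr17:36032652-36032951 (minus strand) for H2-T23 and chr2:122147437-122147736 (plus strand) for B2m.
H2-K1: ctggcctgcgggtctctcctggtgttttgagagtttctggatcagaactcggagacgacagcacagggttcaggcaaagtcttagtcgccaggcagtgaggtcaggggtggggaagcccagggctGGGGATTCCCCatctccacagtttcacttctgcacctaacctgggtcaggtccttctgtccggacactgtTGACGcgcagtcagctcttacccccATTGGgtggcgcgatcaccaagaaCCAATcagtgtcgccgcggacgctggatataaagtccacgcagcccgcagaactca
H2-D1: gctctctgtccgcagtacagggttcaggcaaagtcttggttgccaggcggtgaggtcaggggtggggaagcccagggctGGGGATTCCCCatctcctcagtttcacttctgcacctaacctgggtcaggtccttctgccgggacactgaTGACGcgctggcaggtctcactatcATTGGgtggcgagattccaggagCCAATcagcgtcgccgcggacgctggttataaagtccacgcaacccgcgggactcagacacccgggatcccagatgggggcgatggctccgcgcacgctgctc
H2-Q4: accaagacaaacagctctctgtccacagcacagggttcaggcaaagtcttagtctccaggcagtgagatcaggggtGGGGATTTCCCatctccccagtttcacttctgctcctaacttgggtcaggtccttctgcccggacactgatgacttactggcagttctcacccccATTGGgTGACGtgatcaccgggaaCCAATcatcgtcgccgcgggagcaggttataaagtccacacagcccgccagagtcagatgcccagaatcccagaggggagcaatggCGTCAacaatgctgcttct
H2-T23: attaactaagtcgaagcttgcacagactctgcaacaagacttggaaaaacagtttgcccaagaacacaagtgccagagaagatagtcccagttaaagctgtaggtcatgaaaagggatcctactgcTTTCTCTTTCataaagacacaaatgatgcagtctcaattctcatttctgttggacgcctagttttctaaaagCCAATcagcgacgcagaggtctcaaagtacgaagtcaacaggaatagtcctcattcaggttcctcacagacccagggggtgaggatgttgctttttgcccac
B2m: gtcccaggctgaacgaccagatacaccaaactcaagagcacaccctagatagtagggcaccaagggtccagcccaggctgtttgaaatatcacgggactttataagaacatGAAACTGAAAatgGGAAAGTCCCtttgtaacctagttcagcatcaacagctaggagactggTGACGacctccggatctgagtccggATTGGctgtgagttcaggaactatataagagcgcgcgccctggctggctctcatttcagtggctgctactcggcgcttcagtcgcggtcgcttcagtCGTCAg

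The promoters of H2-K1 and H2-D1 were 89.7% identical over 242 aligned columns, and each held the same run of motifs in the same order. In H2-K1 the NF-kB matches began at -125 bases from the start, TGACG at -55, the CCAAT box on the opposite strand at -30 and the CCAAT box on the gene's own strand at -6. In H2-D1 the same 4 lay at -171, -101, -76 and -53. The letters tataaag lie after the annotated start in H2-K1 and before it in H2-D1. Positions counted from the annotated starts are therefore not directly comparable between these promoters. Whether transcription in these cells begins at the annotated start of H2-K1 was not tested. H2-Q4 was 82.1% identical to H2-K1 over 235 columns and held NF-kB matches from -174, TGACG at -73 between CCAAT boxes at -79 and -55, and a second TGACG match on the opposite strand at 32. In these 3 promoters the NF-kB matches are overlapping windows of 1 run of letters, read on both strands. The H2-T23 window aligned to H2-K1 over 96 columns, 58.3% of them identical. It held a CCAAT box at -52 and an interferon response core on the opposite strand at -124, and no match to TGACG or NF-kB. The B2m window held an interferon response core at -139, an NF-kB match on the opposite strand at -126, TGACG at -78 and, on the opposite strand, at 45, and a CCAAT box on the opposite strand at -53. No match to 1 motif overlapped a match to another in these windows. Of the 10 genes 8 had an entry in the promoter table. A CCAAT box was in 7 of these 8, TGACG in 5, the interferon response core in 3 and the NF-kB motif in 4. Among 27025 promoters of the same length the shares were 37.8%, 20.7%, 3.52% and 4.36% in that order. The CCAAT box and TGACG were chosen as elements of class I promoters, and the windows of H2-K1, H2-D1 and H2-Q4 are related sequences. The shares among the 8 are therefore no measure of an excess. A match describes the letters only and is not a measured binding site. The search took fixed letters, so a window without a match can still hold a variant of the motif. The letters tttcacttct, close to the interferon response core on the opposite strand, occur in H2-K1, H2-D1 and H2-Q4 and were not counted.

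All 10 genes were measured in both libraries, from 55.1 to 2303 CPM in the AI662270 library and from 53.7 to 1481 CPM in the control library. B2m was called higher, 1 of 10, against 5.59% of 13268 measured genes, and 0 of 10 were called lower, against 5.72% of measured genes. The log2 ratio was above 0 for 6 and below 0 for 4, with a median of 0.22 over the 10 and of -0.02 over all measured genes. A looser rule of 1.5-fold called 3 of the 10: B2m and H2-K1 higher, where 12.9% of measured genes were, and H2-T23 lower, where 14.3% were. The genes at the displayed molecule and those at its supply route did not take 1 direction: B2m, H2-K1 and H2-D1 had the highest ratios, Tap1, Tap2 and Tapbp had ratios between 0.914 and 1.14, and Nlrc5 and H2-T23 had the lowest. Erap1, of the supply route, had a ratio of 1.32, above the 1.19 of the heavy chain H2-Q4. Together the 10 took 0.734% (0.730 to 0.739) of counts in the AI662270 library and 0.457% (0.454 to 0.460) in the control library, by the Clopper-Pearson method.

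**Figure D1:**
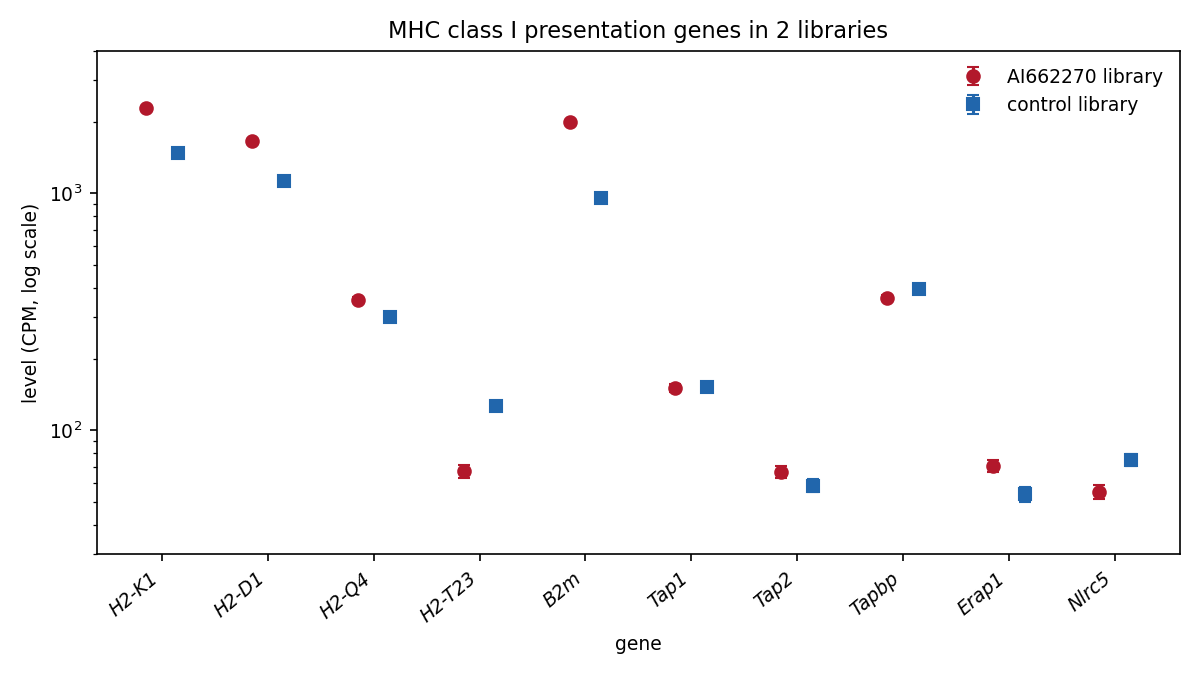
Level of each of the 10 genes in CPM on a log axis, with the AI662270 library as red circles and the control library as blue squares; bars are 95% exact Poisson intervals and are often smaller than the symbol. B2m lies at 1998 CPM in the AI662270 library and at 953 CPM in the control library, while H2-T23 lies at 67.2 and 127 CPM in the same order.

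**Figure D2:**
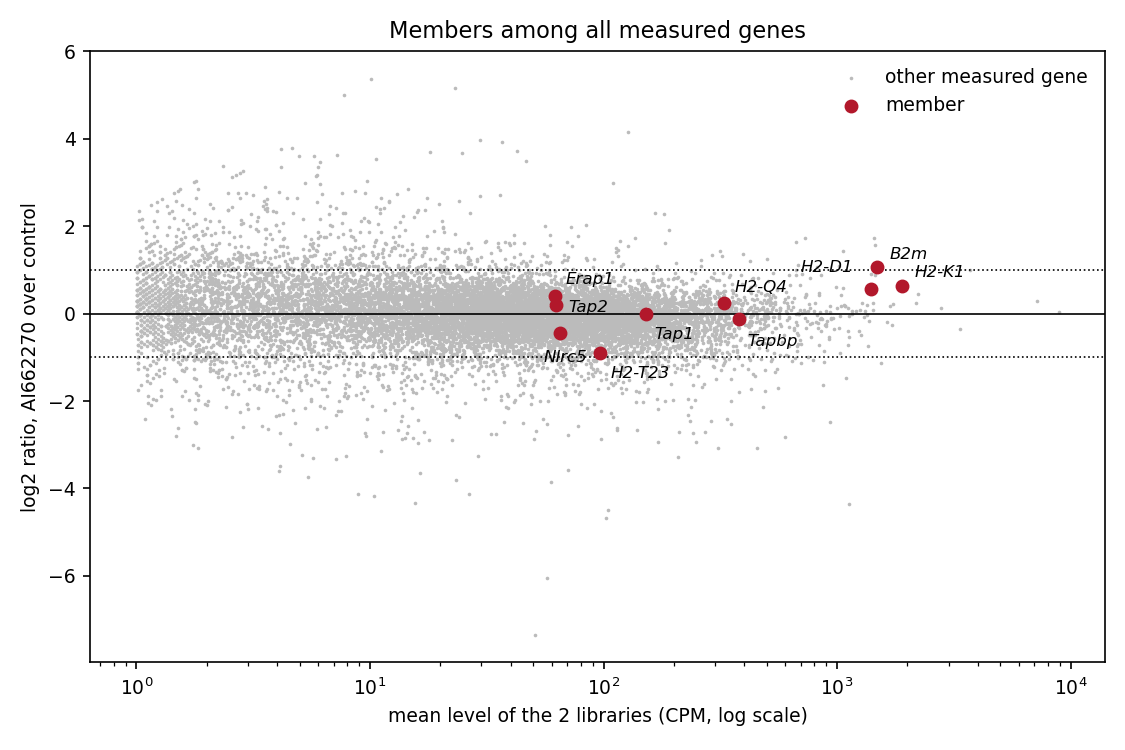
Log2 ratio of the AI662270 library over the control library against mean level in CPM (log axis) for 13268 measured genes in grey and the 10 genes in red; dotted lines mark a log2 ratio of 1 and of -1. H2-K1, B2m and H2-D1 sit at the right edge among the most abundant genes and above 0, and B2m is the red point past the upper line.

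H2-K1 and H2-D1 encode the classical class I heavy chains, which present peptides to CD8 T cells. H2-K1 (ENSMUSG00000061232, chr17:33996017-34000333, mm10, minus strand) had 35880 counts or 2303 CPM in the AI662270 library, against 22509 counts or 1481 CPM in the control library. It ranked 8 among all genes by counts in the AI662270 library and 19 in the control library. Its ratio was 1.56 (1.53 to 1.58), a log2 ratio of 0.64, under the 2-fold rule, and the log2 ratio was at least as high in 11.6% of measured genes. H2-D1 (ENSMUSG00000073411, chr17:35262730-35267499, plus strand) had 25981 counts or 1667 CPM in the AI662270 library, against 17195 counts or 1131 CPM in the control library. That was a ratio of 1.47 (1.45 to 1.503), a log2 ratio of 0.56. H2-D1 had 0.724 counts per H2-K1 count in the AI662270 library and 0.764 in the control library, a change of 0.948-fold (0.924 to 0.972).

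H2-Q4 encodes a nonclassical chain of the Q region. H2-Q4 (ENSMUSG00000035929, chr17:35379617-35385290, plus strand) had 5559 counts or 357 CPM in the AI662270 library and 4566 counts or 300.3 CPM in the control library, a ratio of 1.19 (1.14 to 1.24). Its change per count of H2-K1 was 0.764-fold (0.732 to 0.797). Of the stretches of 50 bases in its annotated transcripts, 36.4% also occurred in transcripts of another gene, 15.3% in the antisense gene Gm11131 and 9.68% in H2-Q6, so its counts are uncertain. The same share was 9.63% for H2-K1, 12.8% for H2-D1, 14.5% for H2-T23 and 0% for B2m.

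H2-T23 encodes Qa-1, a nonclassical chain that presents leader peptides of other class I chains to receptors of natural killer cells. Its values went the other way. H2-T23 (ENSMUSG00000067212, chr17:36029773-36032855, minus strand) had 1047 counts or 67.2 CPM in the AI662270 library, against 1924 counts or 127 CPM in the control library. The level was 1.88-fold lower (1.75 to 2.03) in the AI662270 library, a log2 ratio of -0.91 that did not reach the rule, and 7.09% of measured genes had one as low or lower. Per count of H2-K1 there were 0.0292 counts of H2-T23 in the AI662270 library and 0.0855 in the control library, a change of 0.341-fold (0.316 to 0.369). Against its neighbour H2-T22 the change was 0.379-fold (0.346 to 0.415), with 0.263 counts of H2-T23 per count of H2-T22 in the AI662270 library and 0.694 in the control library. The counts of H2-T22 are uncertain, since 53.5% of its 50-base stretches also occur in other genes. At 100 bases, 3.15% of the stretches of H2-T23 occurred in another gene's transcripts. A930015D03Rik, which spans H2-T23 on the other strand, had 15 and 19 counts, with the AI662270 library first.

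Reads of related heavy chains can be assigned to one another, so the chains were also summed. The 26 heavy chain genes of the list, 18 of them with a count, held 79140 counts in the AI662270 library and 54322 in the control library, a ratio of 1.42 (1.41 to 1.44). These were 0.525% (0.522 to 0.529) of the AI662270 library and 0.345% (0.343 to 0.348) of the control library. H2-K1 and H2-D1 made up 78.2% (77.9 to 78.5) of the heavy chain counts in the AI662270 library and 73.1% (72.7 to 73.5) in the control library. Without these 2 the sum had a ratio of 1.15 (1.13 to 1.18). By region the ratio was 1.24 (1.20 to 1.27) for the 6 Q genes, 1.04 (0.999 to 1.08) for the 6 T genes, H2-Bl included, and 0.958 (0.837 to 1.10) for the 12 M genes, so the interval of the last 2 regions includes 1.

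Of the heavy chain genes 12 were measured. Among them 0 were called higher and 1 was called lower, 8 had a log2 ratio above 0 and 4 below, and the median was 0.37. The gene called lower, H2-Bl, a chain named for the blastocyst, had 32 counts in the AI662270 library and 186 in the control library, a ratio of 0.168 (0.112 to 0.245). Its mean level was low, at 7.14 CPM. The deposited annotation classes H2-Bl and H2-T10 as polymorphic pseudogenes. H2-Q7, which encodes the nonclassical chain Qa-2, had 2871 counts in the AI662270 library and 1738 in the control library, a ratio of 1.61 (1.52 to 1.71). H2-Q6 had 2434 and 2282 counts in the same order, a ratio of 1.04 (0.983 to 1.10), although 13.9% of its 50-base stretches occur in H2-Q7. H2-T22, which encodes a chain recognised by some gamma delta T cells, had 3983 counts in the AI662270 library and 2774 in the control library, a ratio of 1.401 (1.33 to 1.47). It shares 31.2% of its stretches with H2-T10, which had 585 and 396 counts and a ratio of 1.44 (1.27 to 1.64). H2-M3, which presents formylated peptides of bacteria, had 402 counts in the AI662270 library and 439 in the control library, a ratio of 0.894 (0.778 to 1.03). H2-T24 and H2-Q10 had ratios of 0.877 (0.728 to 1.06) and 1.64 (1.13 to 2.41). H2-Q10 had only 79 counts in the AI662270 library and 47 in the control library. Of its 50-base stretches 14.0% occur in H2-Q7, so the counts of these genes are uncertain. H2-K1, H2-D1 and the Q7, T10 and T22 chains thus had ratios between 1.401 and 1.61, and H2-Q10 one of 1.64. H2-Q4, H2-Q6, H2-M3 and H2-T24 followed at 1.19, 1.04, 0.894 and 0.877. H2-T23 and H2-Bl were lowest at 0.531 and 0.168.

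**Figure D3:**
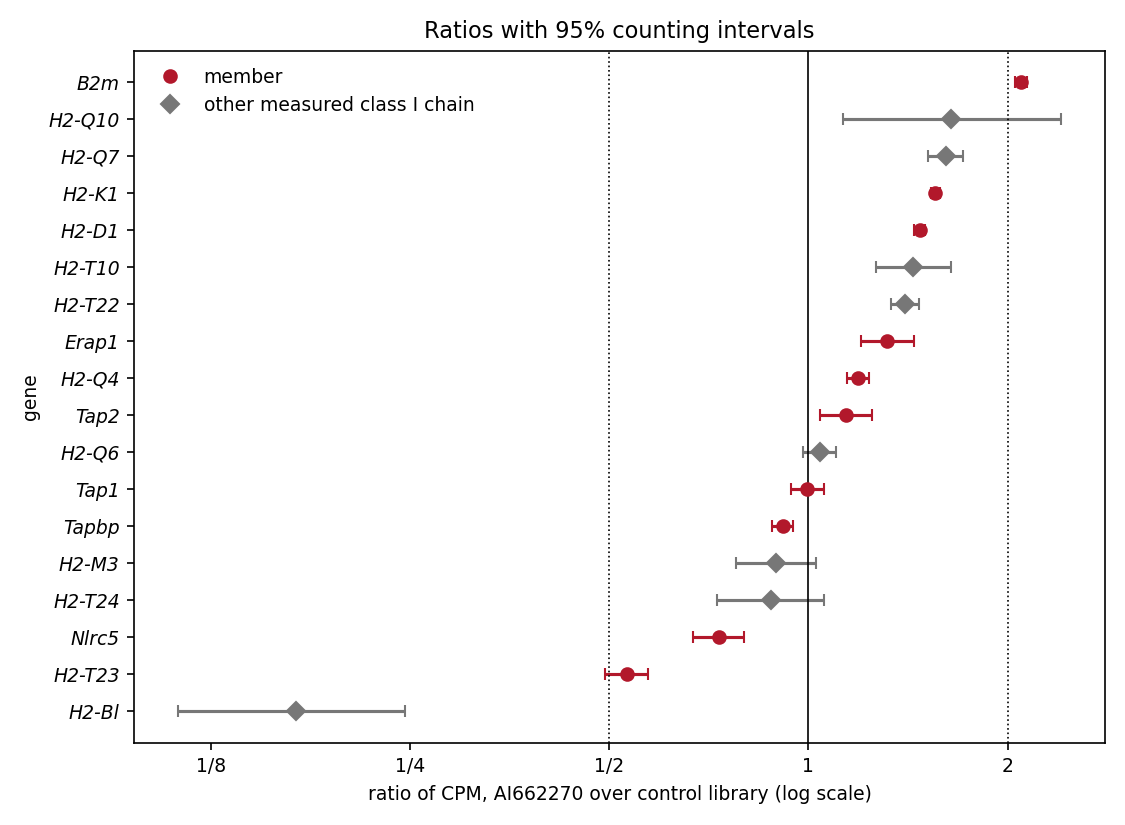
Ratio of CPM in the AI662270 library over the control library on a log axis for the 10 genes (red circles) and the other 8 measured heavy chains (grey diamonds), sorted from high to low; bars are 95% counting intervals and dotted lines mark 2-fold. B2m is the point past the upper line, H2-Bl lies past the lower one at 0.168, and H2-T23 at 0.531 has an interval that crosses it.

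B2m encodes the light chain shared by all class I molecules and lies outside the MHC on chromosome 2. It (ENSMUSG00000060802, chr2:122147686-122153083, plus strand) had 31131 counts or 1998 CPM in the AI662270 library, against 14486 counts or 953 CPM in the control library. By counts it ranked 12 among all genes in the AI662270 library and 69 in the control library. The ratio was 2.10 (2.06 to 2.14), a log2 ratio of 1.07, and 4.82% of measured genes reached or passed it. Among 5152 genes with at least 50 CPM, 1.3% were called higher and 56 had a log2 ratio at least that of B2m, itself included. The difference exceeded that of the heavy chains: B2m had 0.868 counts per count of H2-K1 in the AI662270 library and 0.644 in the control library, a change of 1.35-fold (1.31 to 1.38). Its change per count of H2-D1 was 1.42-fold (1.38 to 1.46). Patl2, the gene that spans B2m on the other strand, had 0 counts in both libraries.

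Levels of different genes were compared per kilobase of the deposited gene length. On that scale B2m led both libraries, with 2323 CPM per kilobase in the AI662270 library and 1108 in the control library. H2-K1 followed with 883 CPM per kilobase in the AI662270 library and 568 in the control library, then H2-D1 with 647 and 439 in that order of libraries. H2-Q4 had 137 CPM per kilobase and Tapbp 110 in the AI662270 library, whereas in the control library Tapbp had 120 and H2-Q4 116, with overlapping intervals. Tap1 had 27.7 CPM per kilobase in the AI662270 library and 27.8 in the control library. H2-T23 lay below Tap1 in the AI662270 library at 23.3 and above it in the control library at 43.8. The 3 genes at the bottom were Tap2 at 17.7 CPM per kilobase in the AI662270 library and 15.5 in the control library, Erap1 at 9.70 and 7.37, and Nlrc5 at 6.49 and 8.88. Apart from Tapbp and H2-Q4 in the control library, the counting intervals of neighbours in this order did not overlap. B2m per kilobase stood at 1.21 times the sum of all heavy chains in the AI662270 library and at 0.814 times that sum in the control library. With the longest coding transcript of each gene as its length, a choice made after seeing the data, the same values were 0.813 in the AI662270 library and 0.549 in the control library, below 1 in both. The deposited length of H2-K1 is 2608 bases and its longest coding transcript has 1619, while B2m has 860 bases by both.

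Tap1 and Tap2 encode the subunits of the TAP transporter, and Tapbp encodes tapasin, which bridges TAP and the empty class I molecule. Tap1 (ENSMUSG00000037321, chr17:34187553-34197225, plus strand) had 2361 counts or 152 CPM in the AI662270 library and 2313 counts or 152 CPM in the control library, a ratio of 0.996 (0.940 to 1.06) that lay above 1, at up to 1.07, under the 3 other scalings and in the FPKM columns. Tap2 (ENSMUSG00000024339, chr17:34203527-34216321, plus strand) had 1041 counts or 66.8 CPM in the AI662270 library and 890 counts or 58.5 CPM in the control library, a ratio of 1.14 (1.04 to 1.25). Tapbp (ENSMUSG00000024308, chr17:33915899-33929288, plus strand) had 5656 counts or 363 CPM in the AI662270 library and 6037 counts or 397 CPM in the control library, a ratio of 0.914 (0.881 to 0.948). None of the 3 reached the 2-fold rule, and their ratios were below those of the classical chains and of B2m. Per count of H2-K1 the change was 0.640-fold (0.603 to 0.680) for Tap1 and 0.588-fold (0.565 to 0.612) for Tapbp. Per count of B2m it was 0.475-fold (0.447 to 0.505) for Tap1 and 0.436-fold (0.418 to 0.454) for Tapbp. Tapbp overlaps Zbtb22 over 3421 bases on the same strand, and Zbtb22 had 464 counts in the AI662270 library and 678 in the control library. Of its 50-base stretches 20.3% also occur in Gm19412, which had 0 counts in both. Tap2 is overlapped on the other strand by Gm15821, with 10 counts in the AI662270 library and 7 in the control library, and by Gm20496, with 2 and 0.

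Of 14 genes of class I folding and loading, B2m and the 3 just described among them, 3 were called higher and 0 lower, and the median log2 ratio was 0.13. Calr, which encodes the chaperone calreticulin, had 23981 counts in the AI662270 library and 8719 in the control library, a ratio of 2.68 (2.62 to 2.75). Pdia3, which encodes the oxidoreductase paired with tapasin, had 17311 counts in the AI662270 library and 8058 in the control library, a ratio of 2.10 (2.04 to 2.15). Both are general chaperones of glycoproteins, and so is calnexin, encoded by Canx, which had 8638 counts in the AI662270 library and 4784 in the control library at a ratio of 1.76 (1.70 to 1.83). Hspa5, the main chaperone of the endoplasmic reticulum, had 22793 counts in the AI662270 library and 21164 in the control library, a ratio of 1.05 (1.03 to 1.07). Tapbpl, which encodes the second peptide editor TAPBPR, had 305 counts in the AI662270 library and 345 in the control library, a ratio of 0.863 (0.737 to 1.01).

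Erap1 encodes the aminopeptidase that trims peptides in the endoplasmic reticulum. It (ENSMUSG00000021583, chr13:74639568-74693201, plus strand) had 1100 counts or 70.6 CPM in the AI662270 library and 816 counts or 53.7 CPM in the control library, a ratio of 1.32 (1.20 to 1.44). It overlaps Cast over 834 bases on the other strand, and Cast had 1878 counts in the AI662270 library and 1759 in the control library. Of 12 peptidases that trim or destroy cytosolic or luminal peptides 0 were called higher and 0 lower, 9 had a log2 ratio above 0, and the median was 0.29. The 2 most abundant, Lnpep and Npepps, had ratios of 0.881 (0.842 to 0.922) and 1.37 (1.29 to 1.44).

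Peptides for class I are made by the proteasome, whose catalytic subunits Psmb6, Psmb7 and Psmb5 can be replaced by the inducible subunits Psmb9, Psmb10 and Psmb8 of the immunoproteasome. Of 7 genes of the immunoproteasome and its activator 1 was called higher and 0 lower, 6 had a log2 ratio above 0, and the median was 0.29. Psmb9 had 983 counts or 63.1 CPM in the AI662270 library, against 409 counts or 26.9 CPM in the control library, a ratio of 2.35 (2.09 to 2.64). Each inducible subunit was set against the subunit it replaces within the same library. Psmb9 had 0.402 counts per count of Psmb6 in the AI662270 library and 0.197 in the control library, a change of 2.03-fold (1.79 to 2.32). Psmb10 had 0.427 counts per count of Psmb7 in the AI662270 library and 0.251 in the control library, a change of 1.70-fold (1.49 to 1.94). Psmb8 had 0.963 counts per count of Psmb5 in the AI662270 library and 0.825 in the control library, a change of 1.17-fold (1.04 to 1.30). Each of the 3 inducible subunits thus had more counts per count of its partner in the AI662270 library, by unlike amounts. Psmb9 lies beside Tap1 on the other strand and the gene bodies overlap by 212 bases. Per count of Tap1 there were 0.416 counts of Psmb9 in the AI662270 library and 0.177 in the control library, a change of 2.35-fold (2.07 to 2.69).

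Nlrc5 encodes the activator of class I transcription that acts at the promoter boxes of these genes. It (ENSMUSG00000074151, chr8:94434356-94527272, plus strand) had 859 counts or 55.1 CPM in the AI662270 library, against 1146 counts or 75.4 CPM in the control library. The level was 1.37-fold lower (1.25 to 1.495), a log2 ratio of -0.45, and 20.3% of measured genes had one as low or lower. Its value therefore lay on the other side of 1 from those of H2-K1, H2-D1 and B2m. Nlrc5 overlaps 9330175E14Rik over 748 bases on the other strand, and that gene had 56 counts in the AI662270 library and 23 in the control library. Mir7072, which lies within Nlrc5, had 0 counts in both.

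Of 15 measured regulators of class I transcription 0 were called higher and 0 lower, 4 had a log2 ratio above 0 and 11 below, and the median was -0.33. The 2 most abundant, Rela and Nfkb1, which encode NF-kB subunits, had 3819 and 3594 counts in the AI662270 library against 5294 and 4669 counts in the control library. Their ratios were 0.704 (0.675 to 0.734) and 0.751 (0.719 to 0.785). Ciita, the related activator of class II genes, had 0 counts in both libraries. Of 15 measured genes of the interferon pathway 0 were called higher and 2 lower, with a median of -0.04. Usp18, which encodes an interferon-induced inhibitor of the type I receptor, had 861 counts in the AI662270 library and 2549 in the control library, a ratio of 0.330 (0.305 to 0.356). Stat2, a transcription factor of the type I response, had 1638 counts in the AI662270 library and 3366 in the control library, a ratio of 0.475 (0.447 to 0.504). Scaled by total counts, Usp18 was called lower and Stat2 was not. Under that scaling 1 regulator of class I transcription, Irf8, was called higher and 0 were called lower.

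The remaining lists were set beside the class I genes. Of 9 measured class I-like molecules outside the MHC 1 was called higher and 0 lower, with a median of 0.08. That gene was Cd1d1, which encodes a B2m-bound chain that presents lipids, with 132 counts in the AI662270 library and 32 in the control library and a ratio of 4.03 (2.72 to 6.12). Of 9 genes of retention and degradation of class I, 0 were called either way, the median was -0.10, and the most abundant, Vcp and Derl1, had ratios of 1.77 (1.69 to 1.84) and 0.702 (0.664 to 0.742). The 3 constitutive catalytic subunits Psmb5, Psmb6 and Psmb7 had ratios of 1.05, 1.15 and 0.966. Of 6 measured class II genes 3 were called higher and 0 lower, with a median of 0.92 at low levels: H2-Ab1 had 304 counts in the AI662270 library and 41 in the control library, H2-Eb1 had 33 and 4, and Cd74 had 144 and 61. Their ratios were 7.23 (5.21 to 10.29), 8.05 (2.86 to 31.3) and 2.30 (1.70 to 3.16). With a pseudocount of 2 CPM, 1 of the 3, H2-Ab1, was called.

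**Figure D4:**
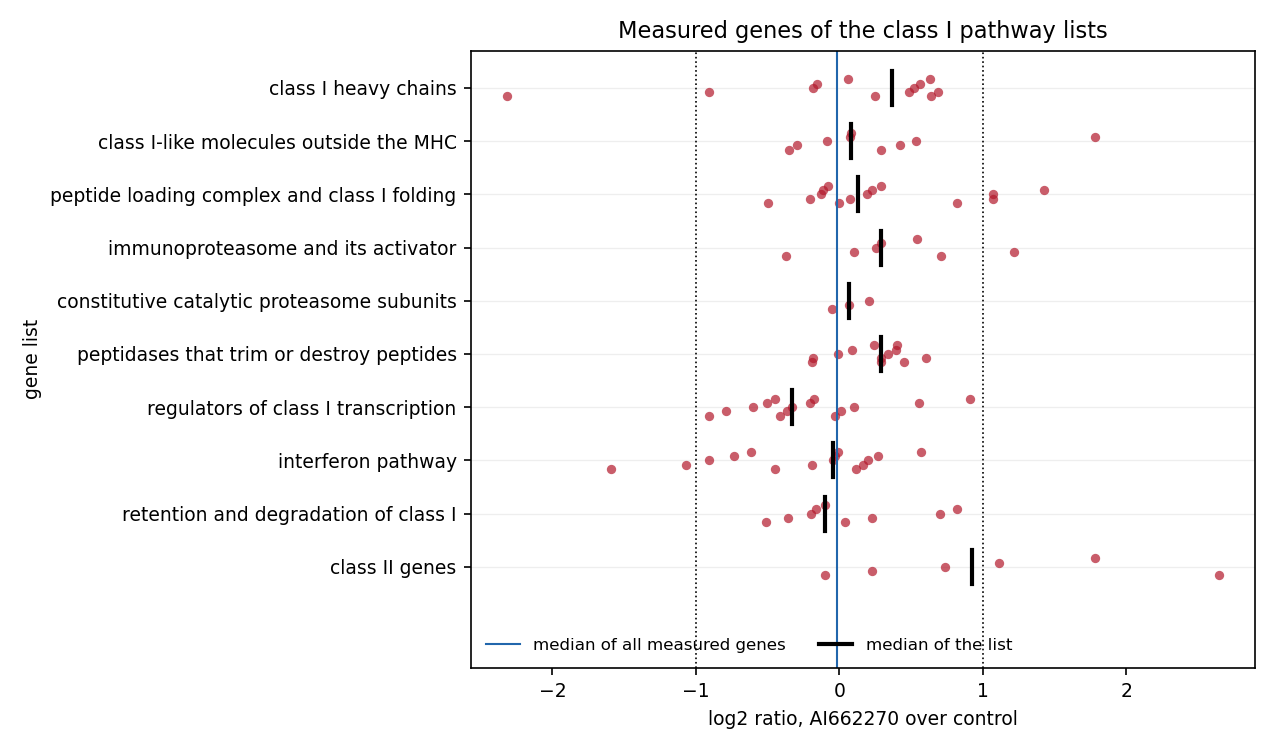
Log2 ratio of the AI662270 library over the control library for each measured gene of 10 pathway lists (red points, offset within a row for visibility), with the list's median as a black bar, the median of all 13268 measured genes as a blue line and dotted lines at 1 and -1. Heavy chains have a median of 0.37 and regulators of class I transcription one of -0.33, and in each list the genes lie on both sides of 0.

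The heavy chains lie on chromosome 17 between positions 33996017 and 37483552, with 108 measured genes in that span. Neighbouring genes had no common direction there. Without the chains and the other genes of the set, 94 measured genes remained, of which 7 or 7.45% were called higher and 5 or 5.32% lower, with a median log2 ratio of -0.06. On the whole of chromosome 17, 32 of 688 measured genes were called higher and 28 lower. Within 50 kilobases of H2-K1, H2-D1 and H2-Q4 there were 9, 3 and 4 other measured genes, and 0 of them were called either way. Near H2-T23 there were 7, of which 2 were called lower: H2-Bl and a locus without a gene name that the authors had added between H2-T22 and H2-Bl. That locus had 17 counts in the AI662270 library and 224 in the control library, a ratio of 0.0741 (0.0424 to 0.121). H2-T22, which lies between it and H2-T23, had a ratio above 1. Near Tap1 and Tap2 the genes called higher were Psmb9 and H2-Ab1, near Tapbp the gene Daxx was called lower, and near Nlrc5 9330175E14Rik was called higher. B2m had 2 and Erap1 had 2 other measured genes within that distance, and 0 were called.

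**Figure D5:**
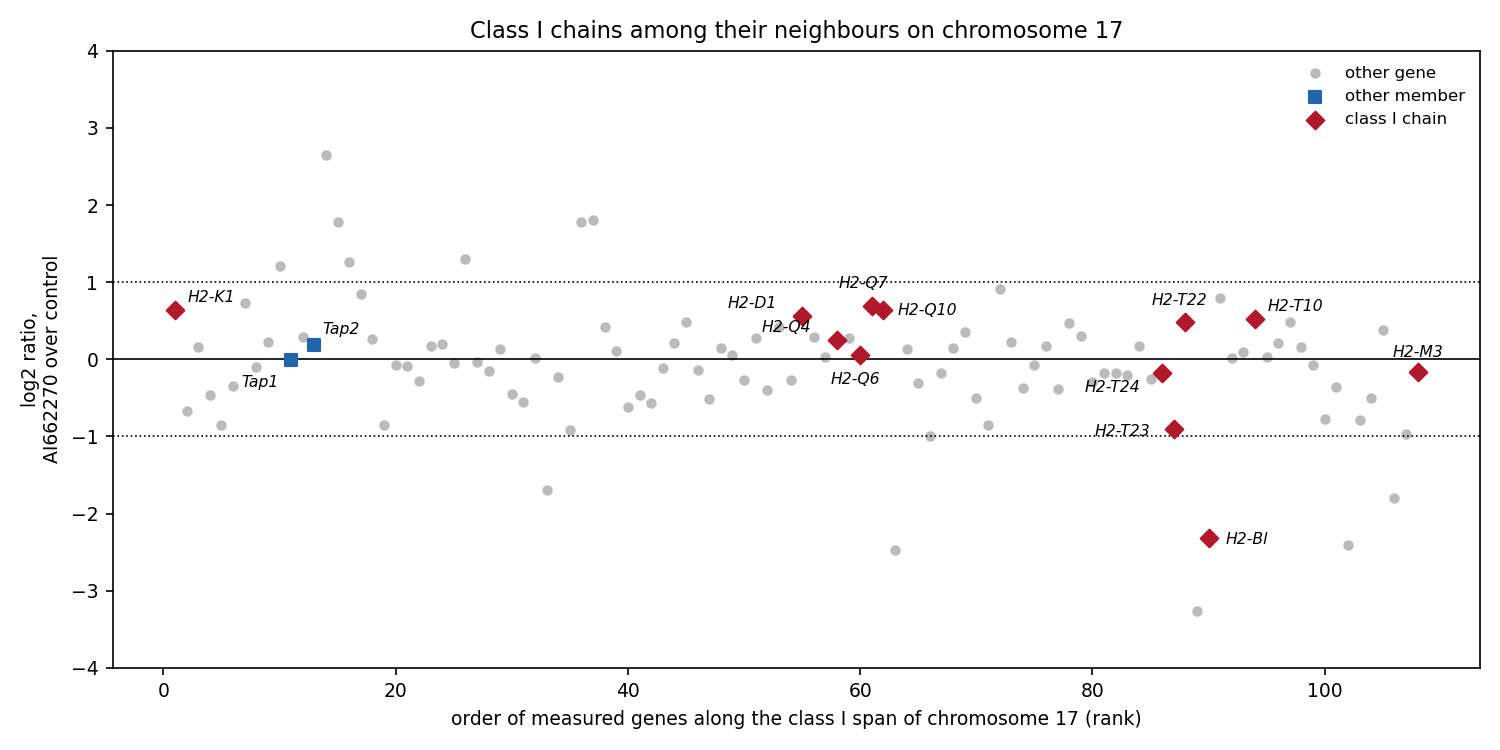
Log2 ratio of the AI662270 library over the control library for the 108 measured genes from the first to the last heavy chain of chromosome 17, in their order along the chromosome: heavy chains as red diamonds, Tap1 and Tap2 as blue squares, other genes in grey, dotted lines at 1 and -1. H2-K1, H2-D1 and the Q chains lie between 0 and 0.69, while H2-T23 and H2-Bl lie at -0.91 and -2.32 with H2-T22 at 0.49 between them.

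In the authors' deposited table, which compares the same 2 libraries, 897 genes had an adjusted p-value under 0.05 and 0 of the 10 genes were among them. The authors' deposited table gives B2m a log2 fold change of 1.07 with an adjusted p-value of 0.144, and H2-T23 one of -0.91 with an adjusted p-value of 0.274. For H2-K1 the authors' deposited table gives 0.64 with an adjusted p-value of 0.604, and for H2-D1 0.56 with an adjusted p-value of 0.674. These p-values come from 1 library per group and so rest on the authors' assumption about the spread.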

How the data were processed

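RNA of 2 sublines of SV40 MES13 was sequenced, 1 library per group. The labels call the material polyA RNA and the design text speaks of removal of ribosomal RNA, so the selection used is not settled. Build mm10, TopHat2 and CASAVA 1.4 are named in the submitters' processing notes. How reads were counted, with which annotation release and strand setting, is not given in the sources used here. Genes that overlap or lie antisense are therefore named as uncertain. The strain of the line is not in the labels either, and whether reads of class I alleles unlike the reference were assigned elsewhere was not tested. The deposited count columns are raw whole-number counts, judged from their values, with 15062482 counts in the AI662270 library and 15727023 in the control library. The deposited FPKM values equal counts over gene length and over 1 divisor of 15391166 in both libraries, and served as an alternative. The authors' normalized signal columns were left out. The log2 fold changes and p-values of the authors' deposited table are quoted as theirs, per the file headers.

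Libraries were scaled with TMM factors from edgeR 4.0.16 in R 4.3.3, 1.03 for the AI662270 library and 0.967 for the control library. CPM, log2 ratios with a pseudocount of 0.5 CPM, which understate the change of low genes, and 95% Clopper-Pearson intervals of the ratio of counts were computed over the whole table in Python 3.11.15 with scipy 1.17.1. Ratios given as folds carry no pseudocount. Change in a count ratio between libraries has an exact conditional interval. Reads carried no molecular identifiers, so intervals and the floor of 3 counts cover counting error only. With 1 library per group there is no replicate spread, and no p-value was computed. The calling rule was run on simulated counts with known changes, which held counting error only. No change of 2-fold was among them. Without spread between cultures, these counts cannot show how often such spread alone would pass the rule. Stretches of 50 and 100 bases shared between genes were counted in GENCODE M21 transcripts. Promoters come from RefSeq, build GRCm38.p6, without entries for Tap2 and Nlrc5.

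The 10 genes, the pathway and marker lists, the rule of size and the motifs were chosen with earlier results of these data known. The result of 1 marker list is not reported here. All 10 genes are named whatever their values; in each pathway list up to 4 measured genes past the rule, or the 2 most abundant where none passed, and genes that overlap one of the 10. Other genes were named after their values were seen: the neighbours on chromosome 17, Canx, Hspa5, Tapbpl, Psmb10, Psmb8, the measured heavy chains and the cell type markers past the rule. Irf8 and Des were named because an alternative setting called them. The alternatives tried were 3 other scalings (total counts, upper quartile, DESeq2 1.42.0), a pseudocount of 0.1 or 2 CPM, a filter of 5 CPM or none, thresholds of 1.5-fold and 3-fold, the FPKM columns with 0.5 FPKM added, and other sets of summed chains.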

Additional observations from a re-analysis of the deposited data

How the results depend on the processing

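No called result reversed under the alternatives tried, but that outcome was fixed in advance. Of the 10 genes B2m alone was called, and the scalings differ too little to bring a 2-fold ratio to 1. A ratio can move under 4 of the alternatives, the 3 other scalings and the FPKM columns. The DESeq2 scaling and the FPKM columns both use 1 common size for the 2 libraries and gave the same ratios. They are therefore not separate checks. Under these 4, 9 of the 10 genes kept their side of 1, while Tap1, at 0.996, lay above 1 in each, at up to 1.07. B2m ranged from 2.10 to 2.24 and H2-T23 from 0.531 to 0.568. The 1.5-fold rule called 3 of the 10 genes, 2 higher (B2m and H2-K1) and 1 lower (H2-T23), against 12.9% and 14.3% of measured genes called higher and lower by that rule; the 3-fold rule called 0, with 0 higher and 0 lower. The other alternatives called B2m alone. Genes of the pathway and marker lists called either way numbered 18, and 40 under the 1.5-fold rule and 7 under the 3-fold rule. Over all measured genes 1501 were called, 742 higher and 759 lower; scaling by total counts gave 870 higher and 615 lower, and a pseudocount of 2 CPM gave 400 higher and 573 lower. The sum of both was 973 with that pseudocount, 963 at a mean of at least 5 CPM, 3598 by the 1.5-fold rule and 509 by the 3-fold rule. The summed heavy chains had a ratio of 1.42, and of 1.52 scaled by total counts, 1.46 by DESeq2 size factors and 1.49 by upper quartiles. The sum gave 1.52 for H2-K1 and H2-D1 alone, 1.45 for the 4 chains of the set and 1.15 without H2-K1 and H2-D1. With the pseudogenes H2-Q5, H2-K2 and H2-T-ps it gave 1.42, while the polymorphic pseudogenes H2-Bl and H2-T10 were already in it. The sum without H2-K1 and H2-D1 and the sum with H2-Q5, H2-K2 and H2-T-ps were chosen after seeing the data. The cause of these moves was not tested. No paired analysis was possible because each group held 1 library. Depth was not the limit for the 10 genes, each with at least 816 counts per library; the spread between cultures is unknown.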
